A study of Mus musculus with 20 samples.

Results

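The regions described here are stretches of mouse liver chromatin that gained a called peak of H3K27ac, acetylation of lysine 27 of histone H3, when the liver lacked Cpt2. The authors merged the H3K27ac peaks of the study into 65776 consensus intervals. A member is a consensus interval overlapped by 1 base or more by a peak of at least 3 of the 4 Cpt2-null libraries and by no peak of the 4 Cpt2-intact libraries. This rule found 2957 members, 4.5% of all intervals, and 1638 intervals (2.49%) met the mirrored rule, called in at least 3 Cpt2-intact and in 0 Cpt2-null libraries. Since members were chosen by H3K27ac peak calls in these 8 libraries, their H3K27ac values in Cpt2-null against Cpt2-intact livers are a description and carry no test. A region without a called peak may hold acetylation below the peak caller's threshold.

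All mice were C57BL/6 males of 9 weeks whose livers were taken after a 24-hour fast. The genotypes were wild type (WT), Cpt2 L-/- (Cpt2 KO, a knockout in liver), Ppara -/- (Ppara KO) and the double knockout Cpt2 L-/-;Ppara -/- (DKO), so the Cpt2-null group is Cpt2 KO with DKO and the Cpt2-intact group is WT with Ppara KO. H3K27ac and H3K4me1 were each measured by chromatin immunoprecipitation and sequencing in 2 livers per genotype, and H3K9ac in 1 WT and 1 Cpt2 KO liver. The sources used here do not give the Cre line or the promoter that drives the liver knockout. The tissue was whole frozen liver, so more cells of a type and more acetylation per cell cannot be told apart.

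Cpt2 is the carnitine palmitoyltransferase of the inner mitochondrial membrane, and long-chain fatty acids cannot be oxidised in mitochondria without it. During fasting the liver depends on this pathway for energy and for ketone bodies, and its loss causes fatty acids and acyl-carnitines to build up. Ppara is a nuclear receptor that binds fatty acids and switches on genes for their oxidation. H3K27ac marks active enhancers and promoters, H3K9ac lies mostly at active promoters, and H3K4me1 marks enhancers whether active or poised. Liver is mostly hepatocytes, with resident macrophages (Kupffer cells), sinusoidal endothelial cells and stellate cells between them.

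Of the members on chromosomes with listed start sites, 229 (7.95%) overlapped a RefSeq start window, which runs from 250 bases before to 50 bases after an annotated start (GRCm38.p6, the assembly named mm10). Of these 229 members, 172 overlapped windows of protein-coding genes, 173 genes in all. For 17 of these genes the whole 250-base upstream stretch lay inside a member called in all 4 Cpt2-null libraries. The stretches below belong to 5 of the 6 such genes with the highest mean log2 H3K27ac fold. They are shown because each lies inside an interval with a peak in every Cpt2-null liver and in no Cpt2-intact one. A peak counts when it overlaps the interval by 1 base or more, so it need not cover the stretch itself. The gene left out, Ifit1bl2, starts divergently from the same DNA as Ifit1. Each is read from the RefSeq table from 5′ to 3′ on the strand of the gene and ends at the base before the start. Capitals mark matches on either strand to 1 of 9 short motifs.
Myo1f (plus strand, chr17:33555457-33555706), an unconventional myosin of leukocytes, with 1 GC box match: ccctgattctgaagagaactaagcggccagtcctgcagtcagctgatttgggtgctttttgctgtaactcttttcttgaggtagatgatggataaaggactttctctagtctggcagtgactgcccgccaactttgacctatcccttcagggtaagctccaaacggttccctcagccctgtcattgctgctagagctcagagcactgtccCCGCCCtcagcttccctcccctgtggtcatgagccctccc
Ifit1 (plus strand, chr19:34640639-34640888), an interferon-induced antiviral protein, with 3 overlapping or adjacent IRF matches: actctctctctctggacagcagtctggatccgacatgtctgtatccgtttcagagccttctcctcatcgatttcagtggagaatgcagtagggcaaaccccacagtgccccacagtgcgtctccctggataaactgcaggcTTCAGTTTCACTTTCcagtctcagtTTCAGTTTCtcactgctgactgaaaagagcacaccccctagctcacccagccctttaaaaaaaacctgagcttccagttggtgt
Evi2b (minus strand, chr11:79523763-79524012), a membrane protein of blood cells, with 1 ETS and 1 GATA match: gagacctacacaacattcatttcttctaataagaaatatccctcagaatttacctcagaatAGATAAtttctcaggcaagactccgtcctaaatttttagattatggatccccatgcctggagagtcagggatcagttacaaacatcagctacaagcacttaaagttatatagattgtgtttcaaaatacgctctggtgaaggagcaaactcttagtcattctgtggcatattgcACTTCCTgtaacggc
Cxcr4 (minus strand, chr1:128592300-128592549), a chemokine receptor, with 3 GC box matches and 2 overlapping TATA matches: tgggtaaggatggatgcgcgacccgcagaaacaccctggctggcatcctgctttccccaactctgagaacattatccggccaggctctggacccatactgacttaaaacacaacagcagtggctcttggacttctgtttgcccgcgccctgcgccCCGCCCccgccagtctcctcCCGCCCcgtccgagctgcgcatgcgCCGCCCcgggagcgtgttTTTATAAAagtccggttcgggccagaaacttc
Arhgap25 (minus strand, chr6:87496328-87496577), a GTPase-activating protein of blood cells, with 1 ETS and 1 IRF match: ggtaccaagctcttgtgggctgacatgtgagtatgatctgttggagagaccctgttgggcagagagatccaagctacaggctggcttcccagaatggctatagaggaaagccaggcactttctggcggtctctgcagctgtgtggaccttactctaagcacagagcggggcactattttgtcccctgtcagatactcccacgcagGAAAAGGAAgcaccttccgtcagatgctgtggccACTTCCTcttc

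The 9 motifs were chosen after values of these data had been seen, and matches may overlap. Over the whole 300-base windows, the IRF letters GAAANNGAA were in 13.9% of the 259 windows at members, in 6.74% of the 9862 windows at intervals called in all 8 H3K27ac libraries and in 8.56% of all 32851 windows. IRF proteins are the interferon regulatory factors. The ETS letters AGGAAGT, the core bound by the family that includes the blood-cell factor PU.1, were in 12.4%, 8.78% and 9.35% of the same 3 sets. The RUNX letters TGTGGTT were in 6.56%, 3.41% and 5.27%. For GATA factors, AGATAA was in 11.6%, 6.29% and 11.2%, so windows at members were close there to all windows. The AP-1 letters TGANTCA were in 5.79%, 4.91% and 7.81%. The CRE letters TGACGTCA, read by cyclic AMP response factors, were in 1.54%, 3.24% and 1.79%. The GC box, GGGCGG, was in 45.2% of the windows at members, against 62.7% at intervals called in all 8 libraries and 35.7% of all windows. A TATAAA box was in 12%, 7.18% and 13.6%. The C/EBP letters TTGCGCAA were in 0.386%, 0.253% and 0.183%. Windows at members had a median of 55.0% G and C and 10 CG dinucleotides, between the 61.3% and 21 of windows at intervals called in all 8 libraries and the 52.7% and 7 of all windows. A match is a description of these letters and not a binding site.

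At the Myo1f start the H3K27ac fold, the authors' ratio of reads at a peak's summit over the local input, was 10.3 and 6.86 in the Cpt2 KO livers and 10.2 and 11.2 in the DKO livers. The Ifit1 member had folds of 6.00 and 9.33 in Cpt2 KO and of 7.85 and 9.49 in DKO. At Evi2b the folds were 7.01, 7.91, 8.42 and 8.78 in the same order. The Evi2b and Myo1f members had no H3K4me1 peak in any library and no H3K9ac interval, whereas the Ifit1 member had H3K4me1 peaks in 3 Cpt2-null and 2 Cpt2-intact libraries. At Cxcr4 the folds were 7.18 and 4.43 in Cpt2 KO and 11.4 and 11.0 in DKO, with H3K4me1 peaks in 2 Cpt2-null and 4 Cpt2-intact libraries and an H3K9ac interval in the Cpt2 KO liver but not in the WT liver. At Arhgap25 the folds were 7.43, 8.29, 7.0 and 7.11, again with H3K9ac in the Cpt2 KO and not the WT liver, and with no H3K4me1 peak.

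Starts of genes known from myeloid cells were among the others at members. A start counts here when its window overlaps a member, so the start base itself may lie outside the member. The 9 given here were picked after their values were seen, and no count or test of such genes was made. Starts of genes without that link, such as Olfr1160, Sema5a, Cdkl4 and Zfp456, had like values. The highest mean fold at a protein-coding start was at Cd300lf, an inhibitory receptor of myeloid cells, with 8.82 in Cpt2 KO replicate 2 and 10.4 and 14.0 in the DKO livers. Its neighbour in the same receptor family, Cd300ld, had 5.75, 9.00, 7.53 and 13.1 in the 4 Cpt2-null libraries. Clec4a3 (9.40, 6.19, 8.17, 13.2) and Clec4a1 (9.64, 6.25, 8.37, 11.0) are C-type lectin receptors from a cluster of related genes, so reads may be shared between copies. Plek, the pleckstrin of platelets and leukocytes, had 7.71 in Cpt2 KO replicate 1 and 10.0 and 13.4 in DKO. Casp4, an inflammatory caspase, had 7.16, 8.29, 12 and 12.3. Ctss, the lysosomal protease cathepsin S of antigen-presenting cells, had 6.50, 4.33, 7.25 and 11.5, Fcgr1, an Fc receptor of monocytes and macrophages, had 5.75, 7.0, 8.0 and 8.80, and H2-Eb1, a class II major histocompatibility gene, had 7.08, 6.40, 4.60 and 10.2. In each of these 9 members the highest value was that of DKO replicate 2. That library also had the highest median fold of the H3K27ac libraries, at members (6.87) and over all its peaks (8.21). Of the starts named without a myeloid link, Gatm, Klf2, Cdkl4 and Zfp456 were also highest there. Flt4, Sema5a and Olfr1160 were not. Starts outside this group included Gatm, which makes guanidinoacetate for creatine synthesis (7.75, 7.51, 9.68 and 13.1), Klf2, an endothelial and lymphocyte transcription factor (9.04 in Cpt2 KO replicate 1, 8.27 and 14.4 in DKO), and Flt4, the receptor of lymphatic endothelium (7.43, 8.56, 9.48 and 5.47). Of the 173 genes, 86 had a start window that overlapped a member called in all 4 Cpt2-null libraries.

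In the H3K27ac peak lists as a whole, Cpt2-null libraries held 46445 to 48929 peaks with a median fold of 7.42 to 8.21, and Cpt2-intact libraries 44454 to 46543 peaks with a median fold of 6.69 to 7.17. Depth in reads is unknown from the files. The smallest peak width of a list, which follows the fragment length used in calling, was 217 to 223 bases in the Cpt2-null and 198 to 210 bases in the Cpt2-intact libraries, so neither width nor median fold overlapped between the groups. The part of these library differences in the choice of members was not tested. Within 5 kb of Cpt2 the highest H3K27ac fold was 12.3 to 19.8 in the Cpt2-intact and 13.3 to 23.3 in the Cpt2-null libraries, and within 5 kb of Ppara it was 19.9 to 29.3 in the Ppara-intact and 20.2 to 43.9 in the Ppara-null libraries. Such peaks need not lie in the deleted part, so they do not check the genotype labels. All 9 hepatocyte markers, among them Alb, Apoa1, Apob, Ttr, Hnf4a, Cps1, Ass1 and Cebpa, had an H3K27ac peak within 5 kb in all 8 libraries.

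Members were weak peaks. Cpt2 KO replicate 1 called 87.1% of the 2957 members with a median fold of 6.49, Cpt2 KO replicate 2 called 76.7% with 6.08, DKO replicate 1 called 88.1% with 6.60 and DKO replicate 2 called 91.4% with 6.87. At the 18281 intervals called in all 8 libraries the median fold in these libraries was between 11.8 and 14.0. DKO replicate 2 was highest in both share and fold, and Cpt2 KO replicate 2 lowest in both. Of the members, 1284 (43.4%) were called in all 4 Cpt2-null libraries, 688 were missing only from Cpt2 KO replicate 2, 380 only from Cpt2 KO replicate 1, 351 only from DKO replicate 1 and 254 only from DKO replicate 2. Just outside the rule, 3953 intervals were called in 2 Cpt2-null and 0 Cpt2-intact libraries, and 1370 in all 4 Cpt2-null and in 1 Cpt2-intact library. In those 1370 the single call came from Ppara KO replicate 1 in 613, from Ppara KO replicate 2 in 503, from WT replicate 1 in 130 and from WT replicate 2 in 124, with a median fold there of 5.50 to 5.93. The median of the mean Cpt2-null fold was 6.39 for members called in 3 libraries and 6.91 for those in all 4, and it was 6.25 for intervals called in 2 Cpt2-null and 0 Cpt2-intact libraries.

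**Figure D1:**
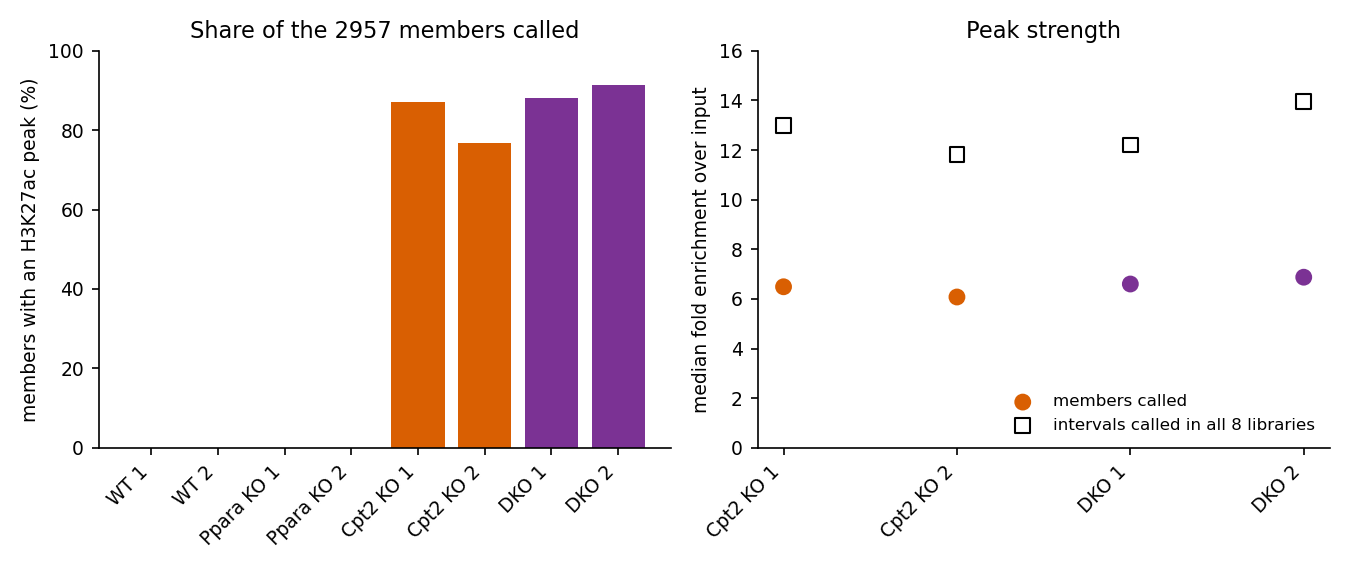
Left, the share (%) of the 2957 members with an H3K27ac peak in each of the 8 libraries, which is 0 by the rule in the 4 Cpt2-intact ones and 76.7% to 91.4% in the Cpt2-null ones. Right, the median fold over input in each Cpt2-null library at the members it called (filled circles, 6.08 to 6.87) and at intervals called in all 8 libraries (open squares, 11.8 to 14.0).

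The strongest members, ranked by mean log2 fold among those called in all 4 Cpt2-null libraries, lay mostly far from starts. The first was a region of 1729 bases at chr2:131426303-131428031, 54.8 kb from Gm30679, its nearest protein-coding gene, with folds of 33.4 and 27.4 in Cpt2 KO and of 6.93 and 14.3 in DKO. The second lay in Maml3, a coactivator of Notch signalling, at chr3:52069678-52070541, with 8.76 and 8.25 in Cpt2 KO and 16 and 21.2 in DKO. These 2 members therefore led for opposite genotypes. None of the other 10 passed the test of DKO against Cpt2 KO given below. The member in Sema3d, a secreted guidance protein, had 15.3, 9.11, 9.43 and 13.3, the one in Ntn1, the guidance protein netrin-1, had 12.8, 10.2, 11.0 and 10.9, and the one in Wwox, an oxidoreductase at a fragile site, had 13.2, 8.03, 12.3 and 13.1. A member 163 kb from Prdm1, the gene of the transcription factor Blimp-1, had 10.2, 9.50, 11.2 and 14.0. Members in Atxn1 (10.7, 11.5, 11.5 and 10.3), in Chd7, a chromatin remodeller (11.3, 7.46, 11.0 and 15.5), in St6galnac3, a sialyltransferase (10.5, 9.67, 11.7 and 13.7), in 4930503B20Rik (13.1, 7.97, 11.0 and 16.9) and 119 kb from Gm38821 (10.2, 11.3, 13.1 and 11.8) completed the set with one in the gene body of Galntl6, a glycosyltransferase gene, over the start of the non-coding RNA gene Gm2921 (12.4, 10.8, 11.7 and 10.4).

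The positions of the members are given beside those of all intervals. Their median width was 511 bases, against 619 for all intervals and 1981 for those called in all 8 libraries. Fewer lay in a gene body (51.9% against 66.1% of all intervals), and 438 (14.8% against 7.93%) were over 50 kb from any protein-coding gene. The median distance to the nearest start was 18.6 kb, against 11.6 kb. The median distance to the nearest interval called in all 8 libraries was 25.5 kb for members and 7.17 kb for all intervals, whereas for the 1638 intervals lost without Cpt2 it was 0.442 kb. A stable interval lay within 1 kb of 7.95% of the members and of 62.6% of the lost intervals. Members lay near each other: 664 (22.5%) had another member within 10 kb, and 9.25% of all intervals had one. Neighbouring members share a locus and are not independent observations. By chromosome, members made up from 3.24% of the intervals on chromosome 4 to 6.24% on chromosome X, and 0 of 8 on chromosome Y.

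**Figure D2:**
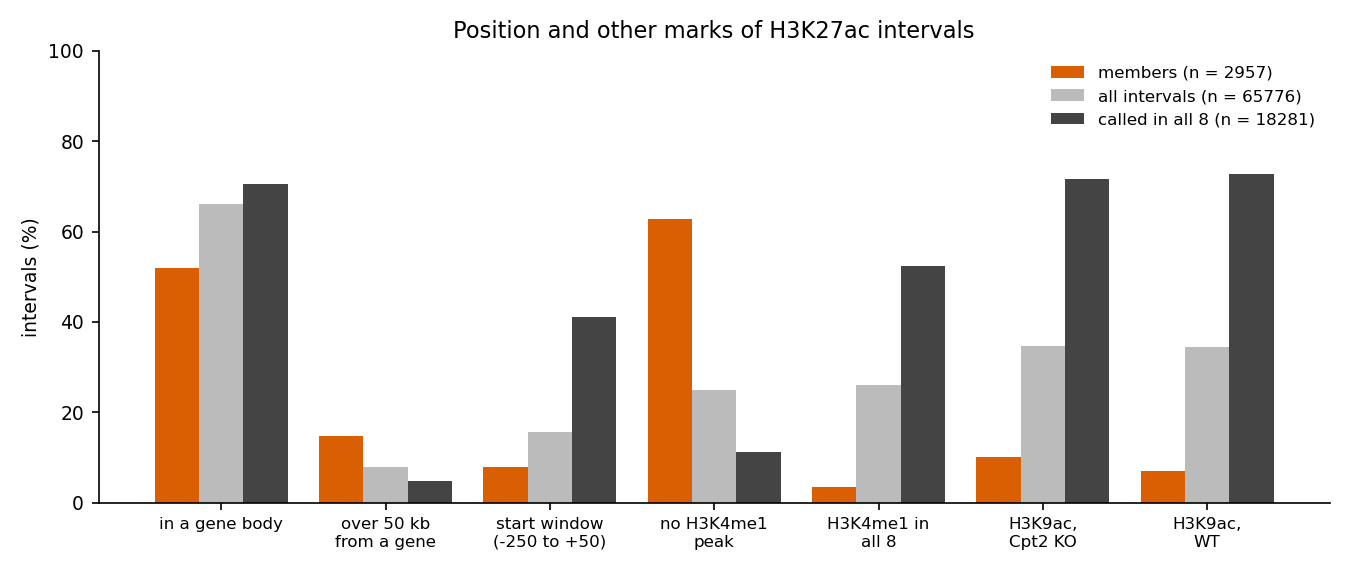
Share (%) of H3K27ac intervals with each property, for members (orange), all intervals (light grey) and intervals called in all 8 H3K27ac libraries (dark grey). Members were less often in gene bodies (51.9%) and start windows (7.95%, over members on chromosomes with listed starts) and far more often without an H3K4me1 peak (62.7%).

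Of 12954 protein-coding genes that were the nearest gene within 50 kb of at least 1 H3K27ac interval, 1864 (14.4%) had a member and 457 had 2 or more. Prkce, the epsilon isoform of protein kinase C that diacylglycerol activates, and Rbms3, an RNA-binding protein of mesenchymal cells, each had 7. The Prkce members spread over 462 kb with mean folds from 5.17 to 7.87, 6 of them in the gene body, among 62 H3K27ac intervals of which 15 were called in all 8 libraries. The widest of those called in all 4 Cpt2-null libraries, chr17:86312862-86314076, had folds of 7.83 and 7.26 in Cpt2 KO and of 10.2 and 6.20 in DKO. Rbms3 was of another kind: none of its 26 intervals was called in all 8 libraries, all 7 members lay in the gene body over 427 kb, and none had an H3K4me1 peak in any library. Its strongest member, chr9:116846700-116847328, had 10.7, 7.87, 8.0 and 6.53.

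Of all genes, 11 had 5 or more members. Of these, 8 were named by the rule, those with most members first and ties in alphabetical order. Beyond Prkce and Rbms3, they were Frmd4b, a scaffold protein, and Msi2, an RNA-binding protein, with 6 each. With 5 each were Ano6, a calcium-activated phospholipid scramblase, and Cd180, a Toll-like receptor homologue of B cells and macrophages. Fyb, an adaptor of T cells and myeloid cells, and Hecw2, a ubiquitin ligase, also had 5. Lrrk1, Rnf150 and Ubash3b had 5 each too and were left out by that order. At Msi2 the strongest of the 6 (chr11:88528674-88529574) had 13.4 and 10.4 in Cpt2 KO and 9.66 and 7.64 in DKO. Fyb had 8 intervals in all, so its 5 members were most of them. The member at its start (chr15:6579096-6580232) had 5.78 and 6.25 in Cpt2 KO and 8.25 and 10.3 in DKO, and no Fyb member had an H3K4me1 peak. None of the 11 Cd180 intervals was called in all 8 libraries. Its strongest member, chr13:102657980-102659068, had folds of 7.62, 6.55, 8.58 and 8.97 and lay 35 kb from the gene.

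The gene lists below were drawn up with earlier results of these data known. A list gene counts when a member has it as nearest gene within 50 kb, read beside the 14.4% of all genes. Among markers of other liver cells, 6 of 12 macrophage markers with an H3K27ac interval had a member, namely Adgre1, Clec4f, Csf1r, Cd5l, Vsig4 and Cd9, with 11 members between them among 63 intervals (17.5%, against 4.5% of all intervals). Adgre1, the F4/80 antigen, had 3, of which the strongest (chr17:57344102-57344531, 14.3 kb away) had 7.42 in Cpt2 KO replicate 1 and 5.80 and 9.00 in DKO. Cd5l, a secreted protein of Kupffer cells, had 2, of which the stronger (chr3:87351317-87351722) had 7.18 in Cpt2 KO replicate 2 and 6.97 and 9.85 in DKO. Cd9, a tetraspanin not restricted to macrophages, had 3. Beyond macrophages, the genes with members were Ptprc (CD45, of all leukocytes), Des and Dcn among 9 stellate and fibroblast markers, Ehd3 among 7 endothelial markers and Spp1 among 3 cholangiocyte markers. Over these 5 lists, 11 of 32 genes (34.4%) had a member. Of their 19 members, 15 had no H3K4me1 peak in any library, where 62.7% of all members had none. Endothelial markers were not above the background, with 1 of 7 genes (14.3%) and 2 of 105 intervals (1.90%). By interval, stellate and fibroblast markers had 3 of 32 (9.38%), cholangiocyte markers 2 of 16 (12.5%) and other leukocyte markers 1 of 7 (14.3%). None of the 8 hepatocyte markers with an interval had a member.

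The summed level of each marker list in each library stands beside these counts. This level is the sum over a list's genes of the highest H3K27ac fold within 5 kb of the gene. For the 14 macrophage markers it was 38.8 to 57.0 in the Cpt2-intact and 66.8 to 113 in the Cpt2-null libraries, with peaks at 4 to 6 and at 7 to 9 of the genes. Cd68, a lysosomal protein of macrophages, had 12 and 16.6 in WT, 14.0 and 20.9 in Ppara KO, 19.8 and 24.3 in Cpt2 KO and 26.1 and 28.4 in DKO. Csf1r, the receptor for the macrophage growth factor, had 7.16 to 8.63 in the Cpt2-intact libraries and 10.5 to 18.6 in the Cpt2-null ones, which did not overlap. Adgre1 and Cd5l had no peak within 5 kb in any Cpt2-intact library and had one in 3 and in 2 Cpt2-null libraries. Itgam, an integrin of myeloid cells, went the other way, with 5.20 and 3.71 in WT and no peak in the other 6 libraries. Marco and Trem2 were without a peak in any library. For 7 endothelial markers the sum was 90.5 to 115 against 138 to 150, for 13 stellate and fibroblast markers 34.4 to 54.6 against 59.9 to 84.4 and for 8 other leukocyte markers 27.9 to 37.9 against 48.4 to 50.1. In these 4 lists the groups did not overlap. Such separation was not limited to cell markers. The cell cycle list was also apart (48.9 to 63.9 against 64.3 to 114), but it was the only one of the 12 pathway lists that was. The median fold of all H3K27ac peaks was apart too (6.69 to 7.17 against 7.42 to 8.21). The share of all genes whose values did not overlap was not computed. Most of the other leukocyte sum came from Nkg7 and Cd79a, each the nearest gene of 0 intervals. The Nkg7 value in every library equals that of Etfb, a mitochondrial flavoprotein gene, so it is the same peak, and the Cd79a values overlapped between the groups (8.0 to 16.5 against 8.0 to 14.7). Among leukocyte and stellate markers S100a8, S100a9, Ly6g, Cd3e, Acta2, Col1a1, Col1a2, Timp1, Lox and Lum had no peak. For 7 cholangiocyte markers the sum was 17.9 to 45.7 against 14.6 to 22.8, with no peak at Krt7, Krt19 or Epcam. For hepatocyte markers it was 176 to 208 against 203 to 267, which overlapped. These sums come from the same 8 H3K27ac libraries as the rule and carry no test, and their part in the choice of members was not tested.

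**Figure D3:**
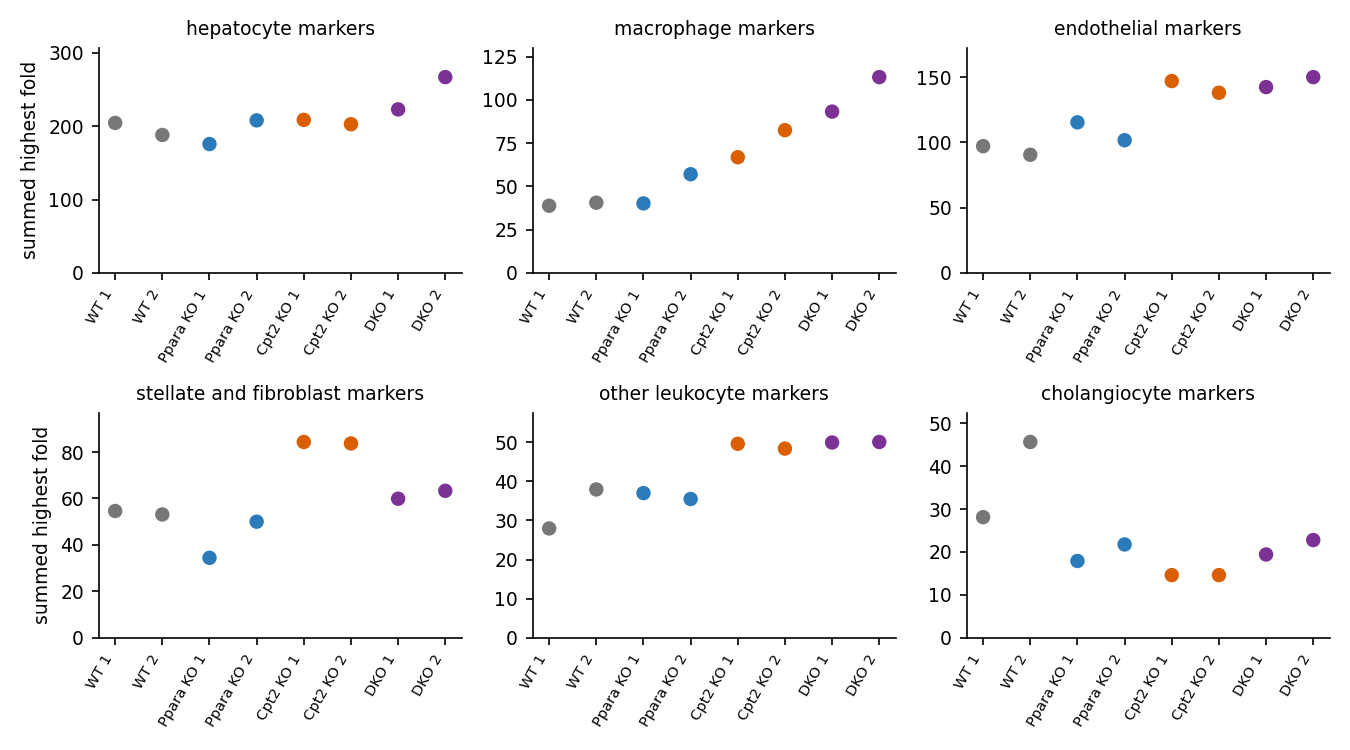
Summed highest H3K27ac fold within 5 kb of the genes of 6 marker lists (y axis, from 0) in each of the 8 libraries (x axis; grey WT, blue Ppara KO, orange Cpt2 KO, purple DKO). Macrophage, endothelial, stellate and other leukocyte sums are higher in all 4 Cpt2-null libraries than in all 4 Cpt2-intact ones, and hepatocyte and cholangiocyte sums overlap. Most of the other leukocyte sum came from Nkg7, at the same peak as Etfb, and from Cd79a, whose values overlapped between the groups.

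Over 12 lists of pathways, 26 of 170 genes (15.3%) had a member, close to the 14.4% of all genes. The fasting and glucocorticoid list had 5 of 14: Ppargc1a, Irs2, Tsc22d3, Fkbp5 and Sgk1. Counted by interval, 8 of its 169 (4.73%) were members, near the 4.5% of all intervals. Ppargc1a is the coactivator of mitochondrial and gluconeogenic genes, and its member (chr5:51591404-51592619, in the gene body) had H3K27ac folds of 9.50 and 8.0 in Cpt2 KO and of 8.14 and 6.00 in DKO. Irs2 carries the insulin signal, and its member (chr8:11055325-11056279, 46.9 kb away) was called in 3 libraries with 6.29, 6.14 and, in DKO replicate 2, 5.87. Sgk1, a kinase induced by glucocorticoids, had 5.88 in Cpt2 KO replicate 2 and 8.17 and 9.95 in DKO. Yap and Tgfb targets had 5 of 13: Ccn1, Amotl2, Axl, Id2 and Tgfb3, but 5 of 126 intervals (3.97%). Tgfb3, a growth factor of the transforming growth factor beta family, had 6.31 and 5.80 in Cpt2 KO and 8.50 and 11.4 in DKO. AP-1 and immediate early genes had 4 of 14: Fos, Fosl2, Jun and Klf6, with 8.15, 6.76, 8.28 and 7.92 at the Jun member, 30.6 kb from that AP-1 subunit.

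The integrated stress response, the translation-control program run by Atf4, had 2 of 21, Nupr1 and Cebpb, with 3 members. All 3 were called in the 4 Cpt2-null libraries, as were 43.4% of all members. Nupr1 is a stress-induced chromatin protein. Its member lies over a listed start (chr7:126625024-126625884) with folds of 4.11, 4.10, 4.67 and 6.67 and with H3K9ac in the Cpt2 KO but not the WT liver. Cebpb is a bZIP transcription factor of fasting and inflammation, and its member (chr2:167713343-167714408, 23.4 kb away) had 8.67, 10.2, 10.6 and 9.09. Ppara targets had 4 of 33, among them Acot1, Cpt1a and Ucp2. Acot1, a cytosolic thioesterase that frees fatty acids from coenzyme A, had 7.94 and 9.50 in Cpt2 KO and 9.50 and 7.40 in DKO at chr12:84022741-84023812, 5.61 kb from the gene, so this member was called in both DKO livers. Cpt1a, the transferase that acts before Cpt2, had 5.79 in Cpt2 KO replicate 2 and 7.87 and 7.51 in DKO. Mitochondrial fatty acid oxidation had 2 of 15 (Cpt1a and Etfb), lipogenesis and cholesterol synthesis 2 of 16 (Acaca and Scd1), cell cycle 1 of 7 (Ccnd1), p53 targets 1 of 11 (Trp53inp1) and Nfe2l2 antioxidant targets 1 of 18 (Abcc4). Lipid droplet genes had 0 of 17 and fetal liver genes 0 of 3. Of the 32 members of these 12 lists, 18 had an H3K4me1 peak in at least 1 library and 14 had none. Of all members, 62.7% had none.

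H3K4me1 was measured in libraries the rule did not use. They came from the same livers as the H3K27ac libraries, as far as the animal numbers inside the deposited peak names show. An H3K4me1 peak overlapped 8.22% (95% exact Clopper-Pearson interval 7.25% to 9.27%) and 9.03% (8.02% to 10.1%) of the members in the WT livers. In the Ppara KO livers it was 11.5% (10.3% to 12.7%) and 17.1% (15.8% to 18.5%). In the Cpt2 KO livers it was 22.3% (20.8% to 23.8%) and 14.6% (13.4% to 15.9%), and in the DKO livers 19.5% (18.1% to 21.0%) and 27.5% (25.9% to 29.1%). Such intervals cover counting error only. The mean share was 21.0% ± 5.38 (SD, n = 4) in Cpt2-null and 11.5% ± 4.02 (SD, n = 4) in Cpt2-intact livers, and the groups overlapped because Ppara KO replicate 2 lay above Cpt2 KO replicate 2. Over all 65776 intervals the share was 47.3% to 52.6% in every library. The smallest H3K4me1 peak width moved with this share. The 4 libraries with 196 to 200 bases had the 4 lowest shares, and the 4 with 210 to 221 bases the 4 highest. Among libraries of 200 bases or less, the Cpt2 KO library had 14.6% and the 3 Cpt2-intact ones 9.57% ± 1.69 (SD, n = 3), a difference of 5.04 percentage points. Among those of 210 bases or more, the 3 Cpt2-null libraries had 23.1% ± 4.07 (SD, n = 3) and the Ppara KO library 17.1%, a difference of 5.96 points. The difference over all 8 libraries was 9.50 points, so it was smaller within each width class.

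**Figure D4:**
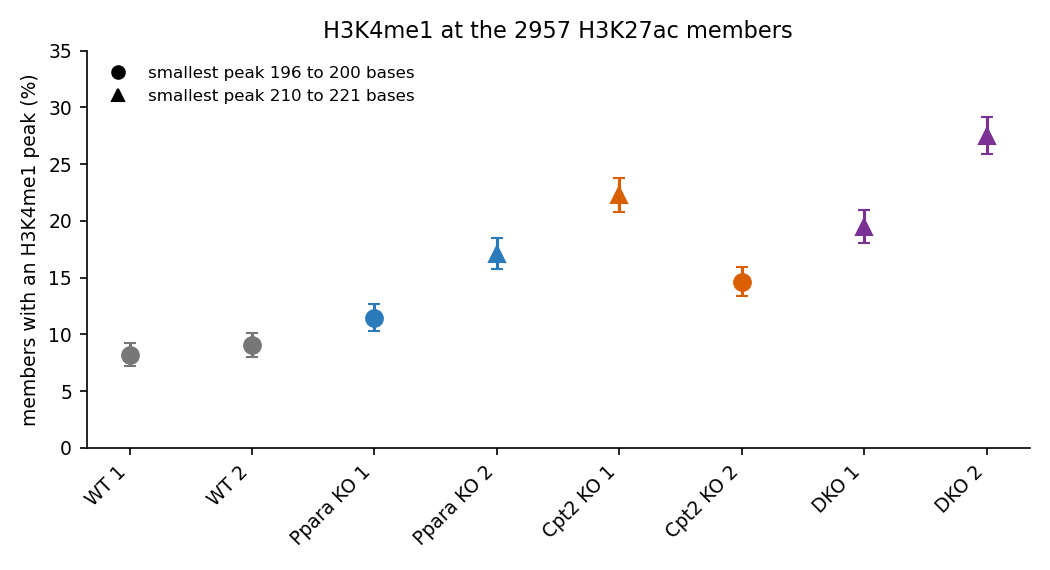
Share (%) of the 2957 members with an H3K4me1 peak in each of the 8 H3K4me1 libraries (colour, genotype; bars, 95% Clopper-Pearson intervals for counting error; circles and triangles, smallest peak width of the library). Cpt2-null libraries lie at 14.6% to 27.5% and Cpt2-intact ones at 8.22% to 17.1%.

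Most members had no H3K4me1 peak at all: 1854 (62.7%) had none in any of the 8 libraries, against 24.9% of all intervals, and 101 (3.42%) had one in all 8, against 26.0%. At 788 members (26.6%, against 21.5% of all intervals) more Cpt2-null than Cpt2-intact libraries called H3K4me1, and at 109 (3.69%, against 20.3%) fewer did. A full gain, in at least 3 Cpt2-null and 0 Cpt2-intact libraries, occurred at 64 members (2.16%, against 0.908%), and the mirrored loss at 1 (against 0.876%). The 1854 members without H3K4me1 were no weaker in H3K27ac: the median of their mean Cpt2-null fold was 6.73, against 6.39 for members with H3K4me1 in 1 to 7 libraries and 6.10 for those with it in all 8. They lay farther from stable acetylation, at a median of 32 kb from an interval called in all 8 H3K27ac libraries, against 17.6 kb and 11.7 kb. DKO replicate 1 called 91.0% of the members without H3K4me1 and 67.3% of those with it in all 8 libraries, while Cpt2 KO replicate 2 called 75.2% and 90.1%.

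Differences in H3K4me1 level could be tested at the 19526 H3K4me1 intervals called in all 8 libraries. With limma and Benjamini-Hochberg adjustment, 0 of 19526 (0%) passed an adjusted p under 0.05 for Cpt2-null against Cpt2-intact. At an unadjusted p under 0.05, 988 (5.06%) were higher and 928 (4.75%) lower. Of the 152 that overlap a member, 19 (12.5%) were higher and 1 (0.658%) lower at that unadjusted level. Their median log2 difference was 0.15, against 0.00 over all intervals tested, and 103 (67.8%, against 49.4%) were above 0. These 152 had H3K4me1 in every library and so are a small and selected share of the members. The lowest adjusted p among them was 0.424.

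The 5 with the lowest p among those higher in Cpt2-null livers were near Acot1, Nufip1, Med21, Ccnd1 and Slc22a12. At Acot1 (chr12:84022415-84024564) the H3K4me1 fold was 7.37 and 8.19 in WT, 5.98 and 5.50 in Ppara KO, 11.6 and 12.1 in Cpt2 KO and 8.39 and 10.8 in DKO. The groups did not overlap. The log2 difference was 0.67 with a standard error of 0.19 and a limma adjusted p of 0.424. At Med21, a Mediator subunit (chr6:146664014-146665737), the folds were 7.83 and 4.83 in WT, 6.85 and 5.0 in Ppara KO, 9.25 and 10.5 in Cpt2 KO and 9.16 and 10.4 in DKO. At Ccnd1, the cyclin of the step from G1 to S phase (chr7:144931262-144935174), they were 5.36 to 7.59 in the Cpt2-intact and 8.33 to 10.6 in the Cpt2-null livers. Neither of these overlapped between groups. At Nufip1, an RNA-binding protein gene, Cpt2-intact values ran from 4.25 to 8.75 and Cpt2-null values from 8.74 to 15.4. At Slc22a12, the urate transporter of the kidney, they ran from 5.91 to 6.80 and from 6.91 to 15.4, so the groups overlapped at Nufip1 only among the 5. These 5 were picked by a low p on the same values, so groups that do not overlap follow largely from that choice. None of these 5 passed the adjusted threshold.

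H3K9ac was measured in 1 library per genotype, so its differences have no replicate check. An H3K9ac interval overlapped 302 members in the Cpt2 KO liver, 10.2% (exact Clopper-Pearson interval 9.14% to 11.4%), and 208 in the WT liver, 7.03% (6.14% to 8.02%). Over all H3K27ac intervals the shares were 34.6% and 34.5%. Members with H3K9ac in the Cpt2 KO liver only numbered 116 (3.92%, against 5.14% of all intervals), and with it in the WT liver only 22 (0.744%, against 5.07%). Most members thus had no H3K9ac interval in either liver. Of the 172 members at a protein-coding start window, 69 (40.1%) had H3K9ac in both livers, 23 (13.4%) in Cpt2 KO only and 3 (1.74%) in WT only. Of all 8799 H3K27ac intervals at such windows, the shares were 89.1%, 3.07% and 1.53%. Members with H3K9ac in Cpt2 KO only and H3K4me1 in at least 3 Cpt2-null and 0 Cpt2-intact libraries numbered 2. One is in Plekhm2, an adaptor of lysosome transport (chr4:141643430-141644084), with H3K27ac folds of 8.61, 7.56, 6.27 and 7.14. The other is 25.6 kb from Azin1, the antizyme inhibitor that raises polyamine synthesis (chr15:38461477-38462187), with H3K27ac folds of 9.80 and 3.83 in Cpt2 KO and 7.44 in DKO replicate 2 and with H3K4me1 folds of 8.20, 5.80, 10.1 and 13.2 in the 4 Cpt2-null livers.

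Whether Ppara changes the acetylation of members in livers that already lack Cpt2 was tested by comparing DKO with Cpt2 KO, a contrast the rule did not use. The fit covered the 25533 intervals called in all 4 Cpt2-null libraries, which include the 1284 members called in all 4. By limma with Benjamini-Hochberg adjustment, 548 intervals (2.15%) passed an adjusted p under 0.05, 175 (0.685%) higher and 373 (1.46%) lower in DKO. Without centring each library on its median, which shifts the median of all intervals to 0.10, the split was 324 higher and 349 lower. Of the 1284 members, 6 passed, 1 higher and 5 lower. At an unadjusted p under 0.05, 52 members (4.05%, against 6.83% of all intervals tested) were higher and 33 (2.57%, against 8.07%) lower. That balance depended on the fit: it was 95 higher and 19 lower members without centring, and 61 higher and 81 lower without DKO replicate 1. The median log2 difference of the members was 0.03 and that of all intervals tested 0.00, and the 5th and the 95th percentile of the members were -0.54 and 0.58. An effect in members that did not pass is not shown to be absent. The DKO and Cpt2 KO livers also differ in the number series of the animals in the peak names, so genotype and that series cannot be told apart.

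The region 54.8 kb from Gm30679, with the folds given above, had a log2 difference of -1.70 with a standard error of 0.27 (limma adjusted p = 0.0155). It also carried H3K4me1 in all 4 Cpt2-null livers (10.9 and 7.5 in Cpt2 KO, 6.46 and 11.7 in DKO) and in 2 Cpt2-intact livers (6.69 in WT replicate 2 and 4.0 in Ppara KO replicate 2). Mertk encodes the receptor by which macrophages take up dying cells. The member in its gene body (chr2:128731006-128732555) had H3K27ac folds of 16.2 and 13.6 in Cpt2 KO and of 5.14 and 6.67 in DKO, a log2 difference of -1.44 with a standard error of 0.25 (limma adjusted p = 0.0202). Its H3K4me1 was called in no Cpt2-intact liver and in all 4 Cpt2-null ones, with folds of 9.43 and 7.14 in Cpt2 KO and of 5.0 and 4.50 in DKO. In both marks, the Cpt2 KO livers lay above the DKO livers at Mertk.

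Gigyf2, a translational repressor, had a member that overlapped its start window (chr1:87326016-87326845). The folds of this member were 8.0 and 6.47 in Cpt2 KO and 2.92 and 2.65 in DKO (log2 difference -1.47, limma adjusted p = 0.0211). A member 72.2 kb from Ccdc71l (chr12:32306024-32307076) had 13.2 and 15.8 against 6.00 and 6.60 (log2 difference -1.30, limma adjusted p = 0.0331). A member 19.8 kb from Gm30447 (chr9:66329817-66331264) had 13.8 and 11.5 against 4.01 and 6.77 (log2 difference -1.37, limma adjusted p = 0.0373). The member in Maml3 alone among the 6 was higher in DKO, with a log2 difference of 1.02, a standard error of 0.22 and a limma adjusted p of 0.0496. In each of these 6 members both libraries of a genotype lay on the same side of both libraries of the other. The 6 were picked by a test on these same values, so this separation adds nothing to the test. Leaving out Cpt2 KO replicate 2 left 1 member called, leaving out Cpt2 KO replicate 1 left 2, and with a minimum −log10 q of 10 on the peaks 3 were called.

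**Figure D5:**
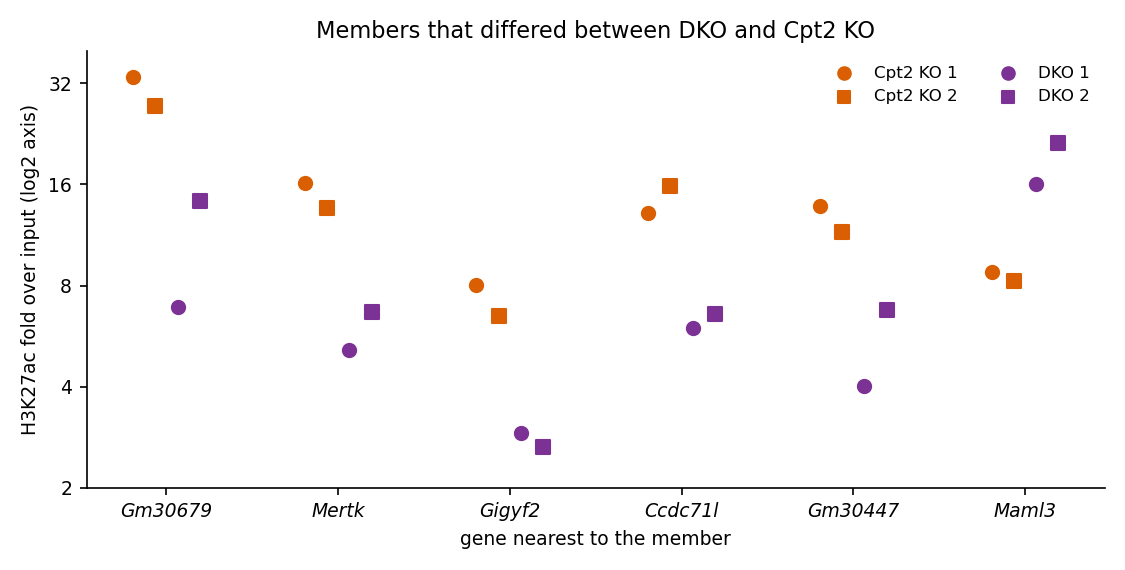
H3K27ac fold over input (log2 axis) in the 2 Cpt2 KO (orange) and 2 DKO (purple) libraries at the 6 members that passed the DKO against Cpt2 KO test, labelled by the nearest protein-coding gene. At 5 members both DKO values lie under both Cpt2 KO values, and at Maml3 they lie above. The members were picked by a test on these same values, so the separation adds nothing to the test.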

How the data were processed

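ChIP-seq of whole liver gave 8 H3K27ac and 8 H3K4me1 narrow-peak lists, 1 per library, placed in groups by sample title. Reads were aligned with BWA to mm10 and peaks called with MACS2 2.1.0, per the submitters' processing notes. For 1 library, H3K27ac Ppara KO replicate 2, the peak names spell the build differently, and mm10 was assumed. Each peak's fold over input, a ratio, and its −log10 q were deposited by the authors, and the consensus intervals and the H3K9ac intervals were deposited as positions only. How the consensus was merged and read depth are not given in the sources used here. Lists were called per library, so replicates were not pooled.

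Computed here, an interval's fold in a library was that of its highest overlapping peak (1 base or more). The nearest of 21896 RefSeq protein-coding genes (GRCm38.p6) was measured from the interval's middle. Start windows from 20 chromosomes were used, without chromosome 18. Log2 folds, centred on each library's median, were fitted with limma 3.58.1 in R 4.3.3 (eBayes with an intensity trend), using intervals called in all libraries compared, with Benjamini-Hochberg adjustment over all of them. The script was tested on simulated data. Labels do not say more of the replicates than their number, so p-values measure the spread between these samples.

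Members and gene lists were chosen with earlier results of these data known. Of the listed genes 1, a non-coding one, was not matched. Named regions were the 12 members with the highest mean log2 fold among those in all 4 Cpt2-null libraries. The 8 genes with most members were also named, with ties taken in alphabetical order. So were members gained in all 3 marks, up to 3 genes per list, members passing DKO against Cpt2 KO, and the 5 with the lowest H3K4me1 p. Alternatives varied the overlap, minimum −log10 q, centring, log2 offset, a minimum mean fold, a replicate block, and each library in turn. A few list genes are not reported here by name.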

Additional observations from a re-analysis of the deposited data

Results flagged for a closer look

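Each group of 4 libraries was examined for a library standing apart from the other 3, in 34 groups of values, and chance alone flags about 1 in 20 such groups. The summed highest fold of the macrophage markers was 57.0 in Ppara KO replicate 2, apart from the other Cpt2-intact libraries at 38.8 to 40.5. At the member in Wwox the H3K27ac fold was 8.03 in Cpt2 KO replicate 2, below the 12.3 to 13.2 of the other Cpt2-null libraries.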

How the results depend on the processing

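The number of members was 1284 when all 4 Cpt2-null libraries had to call a region and ran from 1538 to 3917 when 1 H3K27ac library was left out, the fewest without DKO replicate 2. The count was 2957 with overlap of 50% of the shorter interval, which cannot change it where a peak lies wholly inside its interval. With a minimum −log10 q of 10 the count was 3068, of which 2252 were shared with the members reported. For H3K4me1 between Cpt2-null and Cpt2-intact livers there were no calls in any setting except without Cpt2 KO replicate 2, which gave 172 (76 higher, 96 lower), 2 of them at members and both higher; leaving out a library gave 0 to 172 calls and 0 to 2 at members. For H3K27ac in DKO against Cpt2 KO the count was 1334 with the replicate block, and 140 to 446 when a library was left out, against 548 reported, and the cause was not tested; members called were 9 with the block, 3 with a minimum −log10 q of 10 and 1 to 4 when a library was left out. Where a library is left out, the lone sample is assumed to vary like the other group. Same-numbered libraries did not deviate together (correlation of deviations 0.059 for H3K27ac and -0.489 to 0.101 for H3K4me1), so the numbers were not taken as pairs. Each of the 6 members named for that contrast kept its sign in every alternative that tested it, and fell short of the threshold in 1 to 4 alternatives, all of them with a library left out, with adjusted p up to 0.211. The H3K4me1 difference of 9.50 points was 7.32 to 11.6 when an H3K4me1 library was left out; with members redefined without each H3K27ac library, chosen after seeing the data, it was 9.04 to 10.6 and the H3K9ac difference 2.80 to 3.84 points. Of 210 list genes with an interval, 37 had a member, 21 of 206 within 5000 bases and 20 of 210 with members called in all 4. Macrophage markers with a member were 3 within 5000 bases, 4 with members called in all 4, and 4 to 9 when an H3K27ac library was left out, the most without Ppara KO replicate 2. Depth in reads is unknown, so a region without a call cannot be told from one just under the threshold.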

Other observations

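Regions called in at least 3 Cpt2-null libraries and, among the Cpt2-intact ones, in WT replicate 2 at most had an H3K9ac interval in the Cpt2 KO liver in 14.5% and in the WT liver in 10.7%. The same shares with WT replicate 1 in its place were 11.1% and 7.74%. No explanation was tested.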
